A study of Mus musculus with 12 samples.

Results

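Securin, separase and the cohesin ring were examined in the lung and heart of Adam19 KO and WT mice. The 10 genes were Pttg1, Espl1, Rad21, Smc1a, Smc3, Stag1, Stag2, Wapl, Pds5b and Sgo1, of 55679 genes in the gene table, and the 10 transcripts listed for Pttg1 were added. The genes were chosen by the higher level of Pttg1 in KO lungs than in WT lungs, so values from that contrast are a description, its counts past thresholds included, with no p for the 10 genes, and Pttg1 supports nothing there. The question was whether the difference in securin came with any difference in its partners. The 12 RNA libraries came from the whole lung and whole heart of 6 male mice of strain 129S6/SvEvTac, 3 WT and 3 Adam19 KO. The KO mice were homozygous for a germline allele in which part of Adam19 was replaced by a tdTomato reporter. Each mouse gave both organs, and a replicate number within a genotype names 1 mouse. The prefixes of the mouse identifiers were not shared between WT and KO mice, so prefix and genotype cannot be told apart.

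Cohesin is a ring of SMC1, SMC3 and RAD21 that holds sister chromatids together from DNA replication to anaphase, and that also shapes chromatin loops in cells that do not divide. The fourth subunit is STAG1 or STAG2. Securin, the product of Pttg1, binds and inhibits separase, the protease encoded by Espl1. At anaphase onset the anaphase promoting complex tags securin for destruction, and freed separase cuts RAD21. Wapl releases cohesin from chromatin, Pds5b regulates its release and its acetylation, and Sgo1 shields centromeric cohesin until anaphase. Most cells of an adult lung or heart are not dividing.

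Estimated counts per library ran from 17674788 to 35862932. The 5 lung epithelium markers, among them the surfactant gene Sftpc, lay at 14.5 to 18.4 on the deposited log2 scale in lungs and at 2.61 to 10.2 in hearts. The 5 heart muscle markers, such as Myh6, lay at 16.1 to 20.4 in hearts and at 2.53 to 14.2 in lungs, so the tissues matched their labels. Adam19 itself was lower in KO mice, with log2 fold changes of -5.51 in the lung and -3.14 in the heart and no overlap of the groups. With summed transcripts in place of the gene values it was at -8.86 in the lung and -7.05 in the heart, and with no variance trend the heart value missed the threshold (adjusted p = 0.0601 in limma).

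In GRCm39 with GENCODE vM39, Pttg1 lies on the minus strand of chromosome 11 from 43311071 to 43321000, and Espl1 on the plus strand of chromosome 15 from 102204701 to 102233535. Adam19 is on the same chromosome as Pttg1, and their nearest ends are 2.63 Mb apart. None of the other 8 genes is on chromosome 11. Rad21 is on chromosome 15, Smc1a and Stag2 are on chromosome X, and Smc3, Stag1, Wapl, Pds5b and Sgo1 are on chromosomes 19, 9, 14, 5 and 17. The 200 bases before the transcript start of Espl1 are shown because separase is the direct partner of securin and the gene whose level the question turns on. They are written 5′ to 3′ on the strand of the gene, and capitals mark 2 kinds of short motif on either strand, the CCAAT box (the letters CCAAT) and the GC box (the letters GGGCGG).
Espl1 (chr15:102204501-102204700, plus strand): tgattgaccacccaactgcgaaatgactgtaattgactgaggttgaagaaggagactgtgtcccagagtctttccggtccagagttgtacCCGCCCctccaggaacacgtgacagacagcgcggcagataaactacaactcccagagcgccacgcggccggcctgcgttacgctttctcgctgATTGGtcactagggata

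The stretch held 1 GC box and 1 CCAAT box, which began 110 and 17 bases before the transcript start. The letters were searched on both strands from 250 bases before to 50 bases after the start. One more motif was searched, the cell cycle genes homology region (the letters TTTGAA), and it stood in the windows of Espl1, at the transcript start just past the printed stretch, and of Rad21. Of 21770 promoter windows of the same length, 39.9% held CCAAT, 42.5% held GGGCGG and 17.1% held TTTGAA. The CCAAT box also stood in the windows of Rad21, Smc1a, Stag1, Stag2 and Pds5b, and the GC box in those of Rad21, Smc1a, Smc3, Stag1, Wapl, Pds5b and Sgo1. A match is a description of the letters only.

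Pttg1 was low in WT mice and high in KO mice in both tissues. On the deposited log2 scale it read 5.11, 5.12 and 5.68 in the WT lungs and 9.30, 9.57 and 9.09 in the KO lungs. All KO lungs lay above all WT lungs, with means of 9.32 ± 0.24 (SD, n = 3) and 5.30 ± 0.33 (SD, n = 3). The log2 fold change was 4.02 (95% interval 3.48 to 4.56), or 16.2-fold, and this is the value by which the genes were selected. In the lung 0.0665% of 16551 genes passed the thresholds, which asked for a fold of at least 1.5, a Benjamini-Hochberg adjusted p under 0.05 and a mean of 6 or more in 1 group, and nothing is read from Pttg1 being among them.

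The choice was made by the lung contrast, and the hearts were tested. They came from the same mice and earlier results of these data were known, so this test is not independent of the choice. Pttg1 read 6.31, 5.81 and 6.04 in WT hearts and 10.37, 10.36 and 10.55 in KO hearts. The groups did not overlap, and the KO hearts differed from each other by less than the WT hearts did. Pttg1 rose by a log2 fold change of 4.37 (SE 0.171, 95% interval 3.98 to 4.76), or 20.7-fold, with an adjusted p of 2.15e-05 in limma over 15303 genes. It was higher in 3 of 3 KO hearts, where 0.085% of all genes passed the thresholds. The lung effect minus the heart effect was -0.35 (95% interval -0.999 to 0.291), given without a test because the lung values chose the gene. In whole tissue, more cells with a transcript and more RNA in each cell cannot be told apart, here and for every gene below. P-values from limma set a difference against the spread between these mice, estimated with help from all genes tested.

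**Figure D1:**
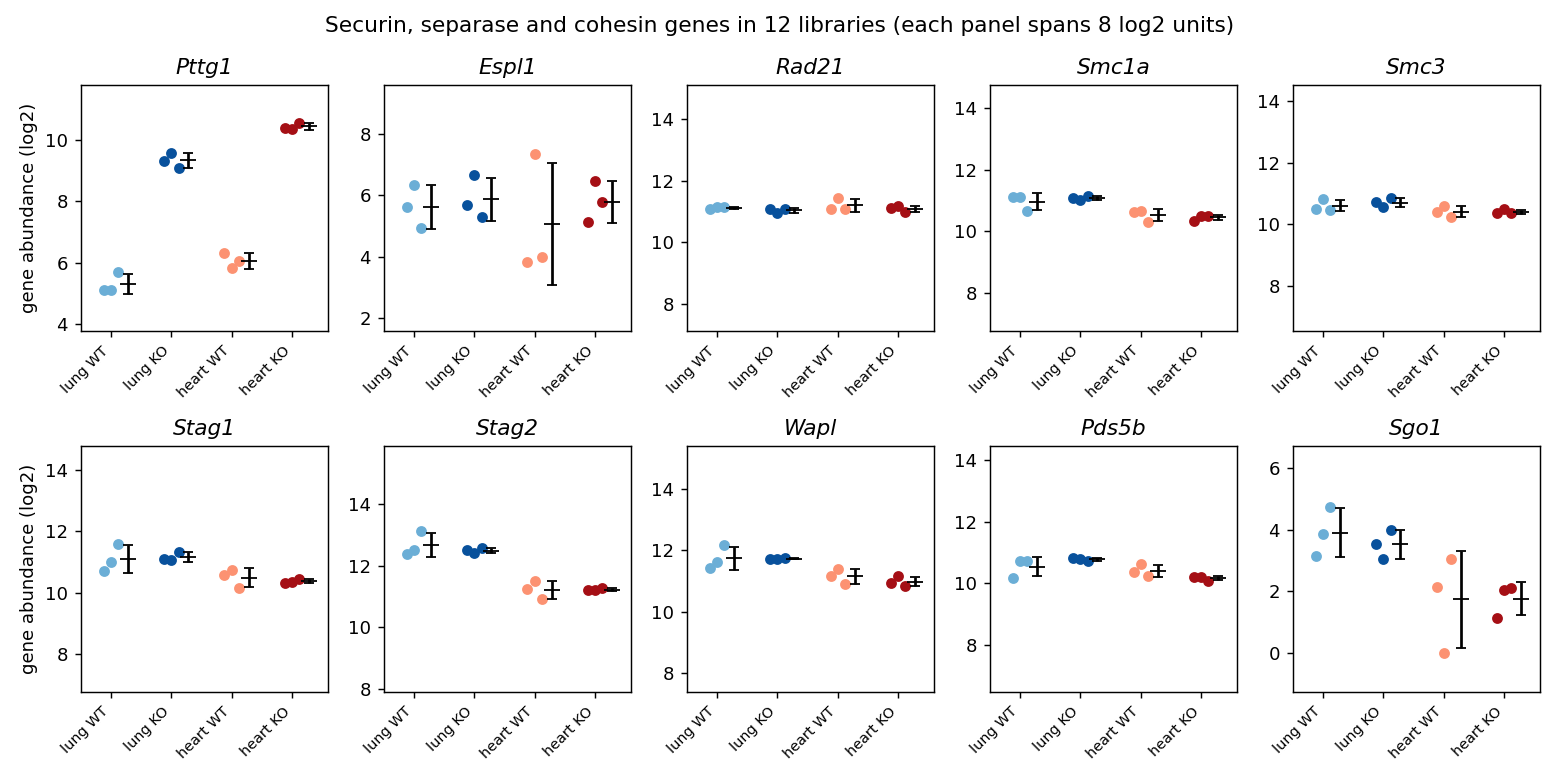
Deposited gene abundance (log2, vertical axis) of the 10 genes in WT and KO lungs and hearts. Each point is a library, the black bar is the group mean and the error bar its SD (n = 3), and every panel spans 8 log2 units. Pttg1 separates KO from WT in both tissues, Stag2 has the largest lung-heart difference of the partners tested, and Espl1 spreads most in WT hearts, from 3.85 to 7.36.

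The higher level of Pttg1 was carried by transcripts that encode the same complete protein in the GENCODE vM39 annotation. Summed over transcripts, the estimated counts were 28.5, 26.9 and 63.4 in WT lungs against 741, 1178 and 459 in KO lungs. In hearts they were 85.9, 32.3 and 34.9 in WT against 1425, 1364 and 1598 in KO. These WT sums are small, so the split among transcripts in WT libraries rests on few reads. ENSMUST00000020687, ENSMUST00000101340 and ENSMUST00000118368 differ only in their first exon, of 66, 35 and 29 nucleotides, and share 597 coding nucleotides before the stop codon. ENSMUST00000121638 has the same coding exons behind another start. These structures are from GENCODE vM39, where each of these transcripts has a newer version than the one quantified. These 4 transcripts took between 92.0% and 100% of the estimated Pttg1 counts in every library.

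ENSMUST00000020687 was the most abundant transcript in the KO hearts, with estimated counts of 753, 714 and 1027 against 85.9, 32.3 and 8.2 in WT hearts. Its share of the gene was 52.8%, 52.4% and 64.3% in KO hearts. Its log2 fold change in the heart was 4.20 (SE 0.609), with an adjusted p of 0.19 in limma over 32015 transcripts, of which 0.0625% passed the thresholds. WT heart replicate 3 held most of the spread, since 73.5% of its Pttg1 counts were assigned to ENSMUST00000118368. With it left out, ENSMUST00000020687 differed by 3.50 log2 and the adjusted p was 0.0345 in limma. This was the lowest with 1 heart left out, and the highest was 0.604.

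ENSMUST00000101340 was listed at 0 in all 3 WT hearts and had estimated counts of 225, 258 and 355 in KO hearts. A value of 0 means that none of the few Pttg1 reads of a WT heart was assigned to it, not that it was absent. With WT hearts at 0, it entered the test only through the KO hearts in which it is high, so its limma call was largely fixed by the filter on low values and is not used, and a group listed at 0 gives no fold. ENSMUST00000118368 had estimated counts of 426, 366 and 206 in KO hearts and was at 0 in 2 of the 3 WT hearts, with an adjusted p of 0.595 in limma. It too needed the KO hearts to meet the filter on low values, so nothing is read from this p. In lungs the division changed from library to library, and ENSMUST00000101340 took 30.0%, 49.9% and 6.4% of the gene in the KO lungs. Of the other transcripts, ENSMUST00000117446 reached 40.8 estimated counts in KO lung replicate 2 and ENSMUST00000020685 reached 28.9 in KO lung replicate 1. ENSMUST00000121638, ENSMUST00000140434 and ENSMUST00000150726 never exceeded 22.6, and ENSMUST00000148130 and ENSMUST00000152115 were listed at 0 in all 12 libraries.

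**Figure D2:**
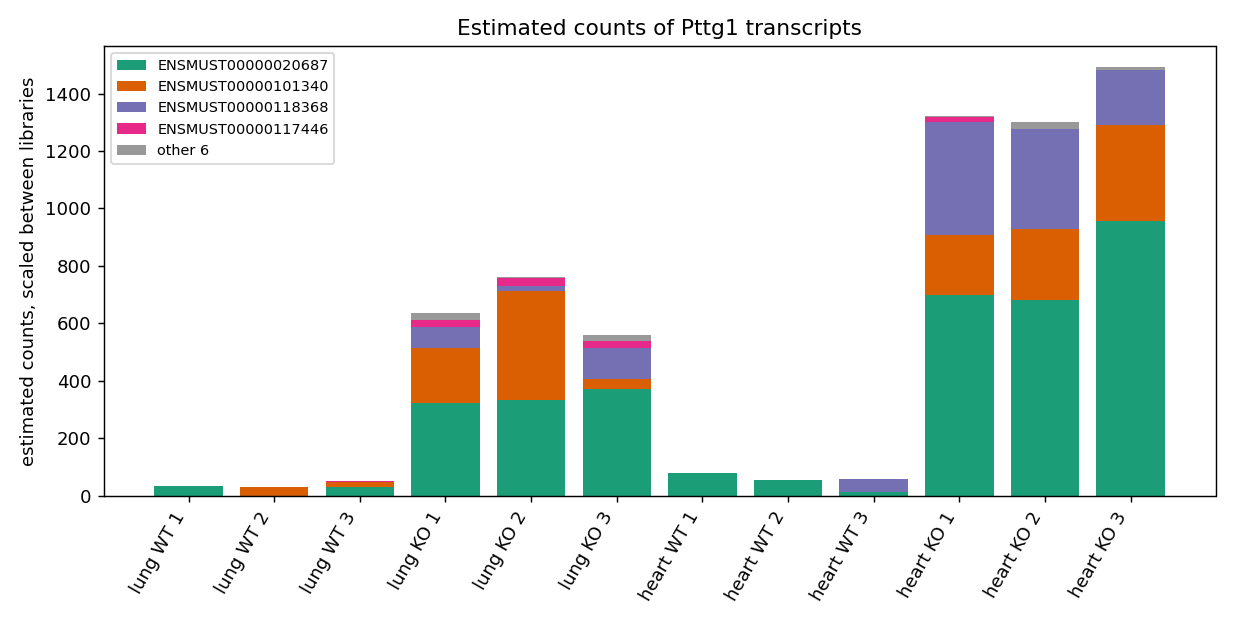
Estimated counts of Pttg1 transcripts, scaled between libraries (vertical axis, linear from 0), in each of the 12 libraries. The colours stand for the 4 most abundant transcripts and the sum of the other 6. KO bars stand between 559 and 1491 and WT bars between 32.0 and 80.3, while the division among the first-exon variants differs between libraries of one group.

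The partner that securin holds, separase, did not pass the thresholds in either tissue. Espl1 read 5.63, 6.34 and 4.92 in WT lungs and 5.67, 6.66 and 5.29 in KO lungs, so the groups overlapped, with a log2 fold change of 0.24 (95% interval -0.79 to 1.28). In hearts it read 3.85, 7.36 and 3.99 in WT and 5.12, 6.48 and 5.78 in KO. WT replicate 2 was the highest of the 6 hearts and the other WT hearts were the lowest. The log2 fold change was 0.73 (SE 0.853, 95% interval -1.21 to 2.66, adjusted p = 0.846 in limma), and without WT replicate 2 it was 1.87 (adjusted p = 0.455). Its direction turned with summed transcripts (-0.087), a pseudocount of 5 on them (-0.161) and limma-voom (-0.037). The interval is wide enough to hold a 1.5-fold change in either direction, so the data do not show that Espl1 was level.

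The core ring genes were close to level between genotypes. Rad21, whose product separase cuts, read 11.09, 11.14 and 11.14 in WT lungs and 11.10, 10.96 and 11.09 in KO lungs. In hearts it read 11.09, 11.45 and 11.07 in WT and 11.12, 11.17 and 10.99 in KO. Its log2 fold change was -0.08 in the lung (95% interval -0.38 to 0.23) and -0.11 in the heart (95% interval -0.42 to 0.21, adjusted p = 0.861 in limma). Smc1a and Smc3, which form the long arms of the ring, had log2 fold changes of 0.13 and 0.10 in the lung and of -0.09 and 0.00 in the heart. Their intervals in the heart were -0.40 to 0.22 and -0.30 to 0.30, with adjusted p of 0.889 and 1. For these 3 genes the intervals in both tissues lay inside 1.5-fold in either direction.

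The fourth subunits also overlapped between genotypes. Stag1 differed by 0.06 log2 in the lung (95% interval -0.45 to 0.58) and by -0.12 in the heart (95% interval -0.48 to 0.25, adjusted p = 0.866 in limma). Stag2 read 12.38, 12.52 and 13.12 in WT lungs and 12.50, 12.42 and 12.56 in KO lungs, a log2 fold change of -0.18 (95% interval -0.64 to 0.29). In the heart its log2 fold change was 0.01 (95% interval -0.35 to 0.36, adjusted p = 0.994). WT lung replicate 3 was the highest lung for Stag1, Stag2 and Wapl.

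Among the regulators, Wapl had a log2 fold change of -0.01 in the lung (95% interval -0.46 to 0.45) and -0.17 in the heart (95% interval -0.52 to 0.18, adjusted p = 0.81 in limma). Pds5b was the partner whose genotypes did not overlap in either tissue, and it went in opposite directions. It read 10.19, 10.73 and 10.71 in WT lungs and 10.82, 10.79 and 10.73 in KO lungs, and 10.37, 10.63 and 10.25 in WT hearts against 10.21, 10.22 and 10.09 in KO hearts. The log2 fold change was 0.24 in the lung (95% interval -0.17 to 0.64) and -0.24 in the heart (95% interval -0.55 to 0.06, adjusted p = 0.734). In the lung the highest WT value and the lowest KO value were equal to 2 decimals. Without WT lung replicate 1 the lung difference of Pds5b was 0.06, with summed transcripts it was 0.13, and without WT heart replicate 2 the heart difference was -0.14. The WT samples had an SD of 0.31 in the lung and 0.20 in the heart, close to the size of these differences. Sgo1 was near the lower end of the scale, at 3.06 to 4.72 in lungs and 0 to 3.06 in hearts, and had too low values in the heart to be tested. Its log2 fold change in the lung was -0.39 (95% interval -1.59 to 0.82).

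Counted together, 0 of the 9 partners passed the thresholds in the lung, and 0 of the 8 tested in the heart (limma). In the heart none of the 8 had an unadjusted p under 0.05, while 7.46% of all genes did, Pttg1 among them. The partners' median log2 fold change was 0.06 in the lung, against 0.01 over all genes tested, and -0.10 in the heart, against 0.03. In each tissue 1 of the partners, Pds5b, had groups that did not overlap, beside 12.8% of all lung genes and 13% of all heart genes. None of the 9 passed a test of the genotype effect in lung minus that in heart, which 0.00566% of 17666 genes did. Of the 9, 1 (Pds5b) had an unadjusted p under 0.05 there (limma), as did 7.88% of all genes. No partner's log2 fold change came near that of Pttg1, and the upper bound nearest to it was 2.66, for Espl1 in the heart.

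**Figure D3:**
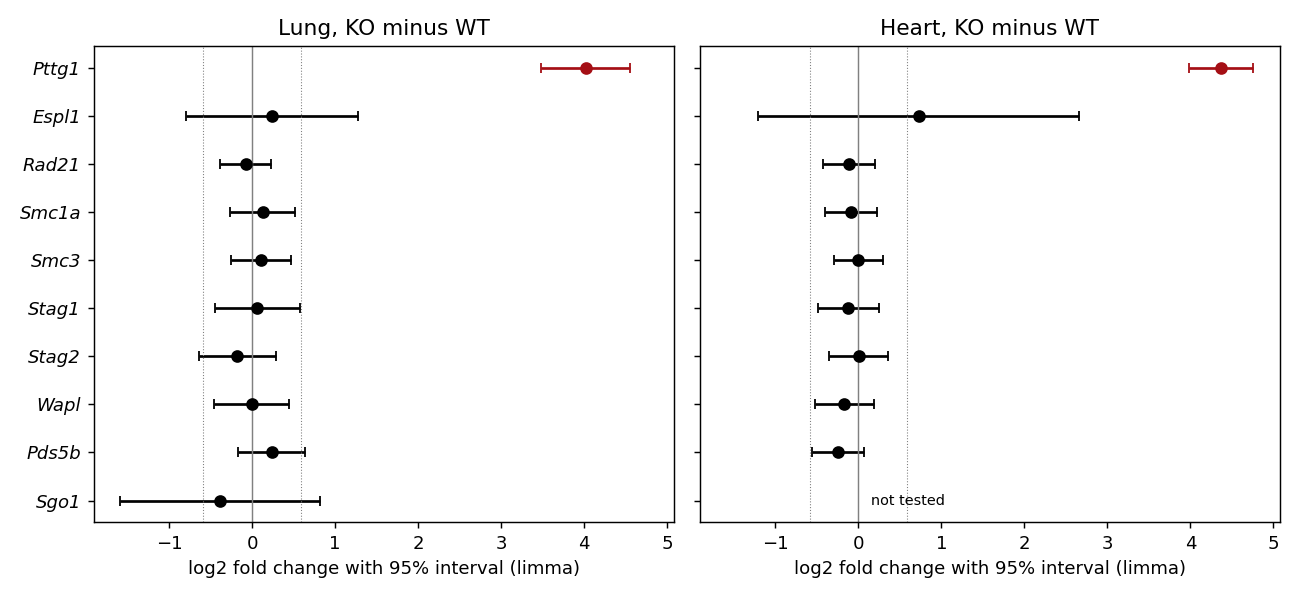
Log2 fold change of KO over WT (horizontal axis) with its 95% interval from limma, for the 10 genes in the lung and in the heart. The solid line marks no difference and the dotted lines a 1.5-fold difference. Pttg1 stands alone at 4.02 and 4.37, and Sgo1 was too low in the heart to be tested.

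Levels of different genes were compared per kilobase of transcript, as scaled estimated counts divided by transcript length. In WT mice securin was the eighth of the 10 genes in both tissues, at 52.0 ± 13.4 per kilobase in the lung and 87.5 ± 16.4 in the heart (SD, n = 3), above Espl1 and Sgo1. In KO mice it was the first, at 857 ± 141 in the lung and 1830 ± 138 in the heart. In KO lungs its range overlapped that of Stag2, the next in order, and in KO hearts it did not overlap that of Rad21, the next in order at 554 ± 35.6.

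The ratio of securin to separase, both per kilobase, had a median of 4.37 in WT lungs (2.76 to 9.80) and of 82.6 in KO lungs (67.1 to 101). In hearts its median was 25.7 in WT (3.25 to 33.6) and 189 in KO (145 to 260). The ranges did not overlap between genotypes in either tissue. Against Rad21, securin had a median ratio of 0.0812 in WT lungs and 1.51 in KO lungs, and of 0.154 in WT hearts and 3.12 in KO hearts. These ratios hold the difference of Pttg1 itself and are no separate evidence of it. They are ratios of RNA, and protein was not analysed here.

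The order of the remaining genes differed between tissues. In WT lungs Stag2 led at 926 ± 259 per kilobase, and its range did not overlap that of Rad21 at 565 ± 12.04. Rad21, Wapl, Stag1, Smc1a and Smc3 followed, and each overlapped the next. In WT hearts Rad21 led at 601 ± 91.1 and stood apart from Wapl at 367 ± 65.9, after which Stag2, Smc1a, Smc3, Stag1 and Pds5b each overlapped the next. The 4 group means of Sgo1 lay between 0.726 and 4.32, and those of Espl1 between 9.63 and 10.998. A transcript of 5830448L01Rik matches Wapl over 307 nucleotides, but that gene read at most 4.50 where Wapl read at least 10.85. Copies of Smc3 and Sgo1, Gm29763 at 94.5% identity over 616 nucleotides and Gm6982 at 92.7% over 1568, read at most 2.04 and 0, and no copy of Pttg1 was found at 90% identity over 200 nucleotides.

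**Figure D4:**
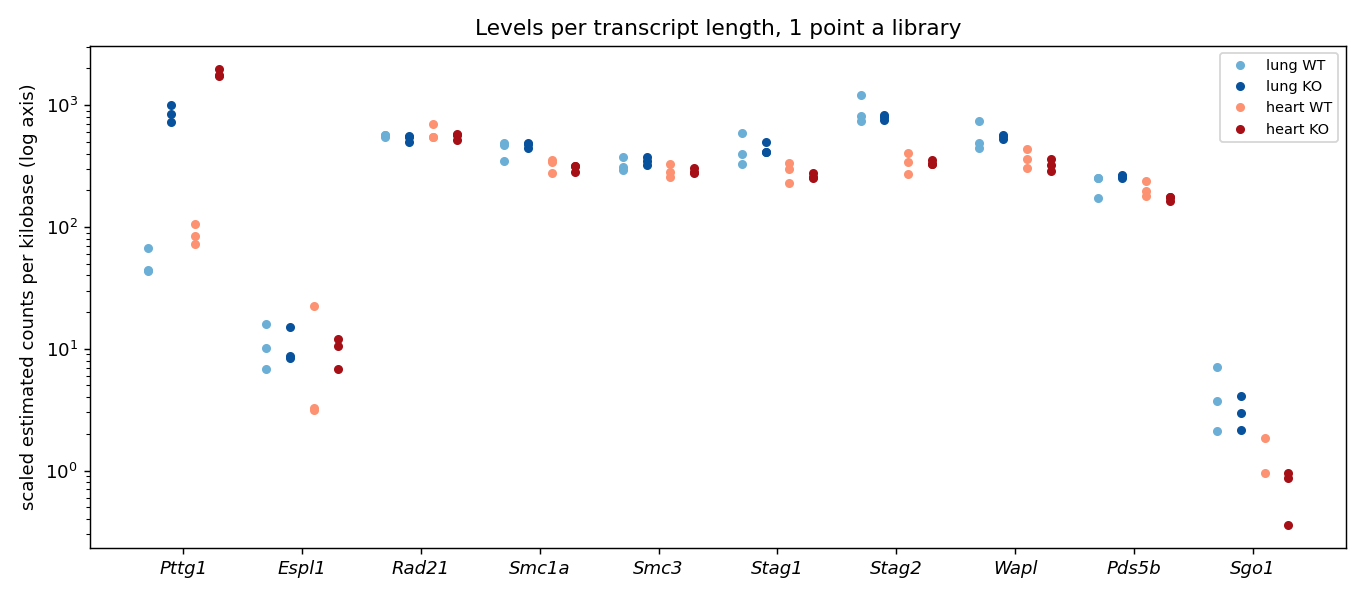
Scaled estimated counts per kilobase of transcript (vertical log axis) for the 10 genes, with 1 point for each library and a colour for each group. A library at 0, which occurred once for Sgo1 in WT hearts, is not drawn. Pttg1 moves from the lower part of the order in WT mice to the top in KO mice, and Espl1 spreads from 3.13 to 22.5 in WT hearts.

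Between lung and heart, Stag2 had the largest difference of the partners tested, in both genotypes. The limma tests between tissues did not pair libraries by mouse, and a block for the mouse was an alternative. In WT mice Stag2 was higher in the lung by a log2 fold change of 1.45 (SE 0.239), or 2.73-fold, with an adjusted p of 0.000894 in limma. All WT lungs lay above all WT hearts for Stag2, and among the partners tested also for Wapl. Stag2 was the only one of the 8 partners tested that passed, while 50.2% of all genes did, 29.7% higher in the lung and 20.5% higher in the heart. Wapl (0.58, adjusted p = 0.051), Stag1 (0.60, adjusted p = 0.0689) and Smc1a (0.43, adjusted p = 0.0781) missed the threshold. Pttg1 read lower in the lung by a log2 fold change of -0.75, with no overlap between the tissues. No test is given for it, because its lung values chose the genes. Without WT lung replicate 3 the log2 fold change of Pttg1 was -0.94. Without WT lung replicate 1, Stag1 (0.79) and Wapl (0.74) passed as well, with adjusted p of 0.0369 and 0.0331. Without WT heart replicate 2, Wapl passed at 0.71 (adjusted p = 0.0468). Espl1 differed by 0.56 log2 (adjusted p = 0.605) and depended on the scale of the values. It was at 0.95 with summed transcripts (adjusted p = 0.0249 in limma) and at 1.71 without WT heart replicate 2 (adjusted p = 0.0212), in both below the group mean threshold of 6.

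In KO mice 5 of the 8 partners tested were higher in the lung. Stag2 differed by a log2 fold change of 1.27 (adjusted p = 8.16e-06 in limma), Stag1 by 0.78 (adjusted p = 0.000314) and Wapl by 0.75 (adjusted p = 0.000352). Smc1a differed by 0.64 (adjusted p = 0.000538) and Pds5b by 0.61 (adjusted p = 0.000508). Smc3 was higher in the lung by 0.30 (adjusted p = 0.0368), below 1.5-fold. Rad21 differed by -0.05 in KO mice and by -0.08 in WT mice and did not pass in either. Pttg1 read lower in KO lungs than in KO hearts by a log2 fold change of -1.11, or 2.15-fold, with 3 of 3 hearts above all lungs. This too is given without a test, because its lung values chose the genes. Of all genes, 53.2% passed in KO mice, 30.9% higher in the lung and 22.3% higher in the heart. Espl1 differed by 0.08 log2 (adjusted p = 0.883). With summed transcripts, a pseudocount of 5 on them and limma-voom it was at 0.97, 0.88 and 0.97, with adjusted p of 0.0119, 0.00968 and 0.0132, and stayed below the group mean threshold. Smc1a and Pds5b lay close to the fold threshold. With libraries centred on their median they were at 0.50 and 0.47 and no longer passed.

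The use of the fourth subunits followed the tissue. Stag2 made up 68.0 ± 1.08% of Stag1 and Stag2 together, per kilobase, in WT lungs and 53.9 ± 0.65% in WT hearts (SD, n = 3). In KO mice it made up 64.4 ± 1.62% in lungs and 56.3 ± 0.31% in hearts. The share was higher in the lung in 6 of 6 mice, by 11.1 percentage points (SD 3.56, range 6.67 to 16.0), with an exact two-sided permutation p of 0.03125 over the pairs, the smallest that 6 mice allow. Between genotypes the share differed by -3.65 points in the lung and by 2.35 points in the heart, KO minus WT. The groups did not overlap in either tissue, and in the heart the exact two-sided permutation p was 0.1, the smallest that 3 mice against 3 allow.

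The wider machinery around securin was taken as 5 lists, which were chosen with earlier results of these data known. In neither tissue did any of their genes pass the thresholds between genotypes (limma). In each tissue 1 gene of these 5 lists, a subunit gene of the anaphase promoting complex named for its p, had an unadjusted p under 0.05, as did 5.93% of all lung genes and 7.46% of all heart genes. These were Anapc10 in the lung (-0.95 log2) and Cdc27 in the heart (-0.41 log2). The list of the anaphase promoting complex, which marks securin for destruction, had 19 genes tested. Beside subunits and activators it holds Ube2c and Ube2s, which encode the ubiquitin-conjugating enzymes that work with the complex, and Fbxo5, which encodes an inhibitor of it. The median difference of the list was -0.13 log2 in lungs and 0.05 log2 in hearts. Cdc20, the activator at anaphase onset, had log2 fold changes of -0.13 and 0.16 in lung and heart, and Fzr1, the activator after anaphase, of 0.09 and -0.05. With 1 library left out Cdc20 ran from -0.263 to 0.054 in the lung and from 0.027 to 0.394 in the heart. Fzr1 then ran from 0.036 to 0.181 in the lung. The 10 genes of the spindle checkpoint and of separase inhibition had a median of -0.31 in the lung, with 0 of 10 above 0. With 1 library left out 0 to 2 of 10 were above 0. The median was then -0.13 without WT lung replicate 3, where 2 were above 0, -0.18 without KO lung replicate 2, -0.48 without WT lung replicate 2 and -0.48 without KO lung replicate 1. In the heart 7 were tested, and 4 of 7 were above 0 with a median of 0.12. Cdk1 and Ccnb1, whose kinase complex also inhibits separase, had log2 fold changes of -0.53 and -0.05 in the lung and of 0.28 and -0.48 in the heart. With 1 library left out Cdk1 ran from -0.715 to -0.332 in the lung and from 0.078 to 0.476 in the heart. Ccnb1 then ran from -0.888 to -0.090 in the heart. Mad2l1, a checkpoint protein, had -0.31 in the lung and -0.17 in the heart, or -0.487 to -0.100 and -0.288 to -0.078 with 1 library left out. Pttg1ip, whose product binds securin, had -0.08 and 0.12.

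No marker of dividing cells passed the thresholds between genotypes (limma). In the lung 0 of 15 were above 0, and the median difference was -0.26 log2, where 51.6% of all genes were above 0. Without KO lung replicate 2, 6 of 15 were above 0 (median -0.09), and without WT lung replicate 3, 5 of 15 were (median -0.12). With summed transcripts 1 of 15 was above 0. In the heart 5 of 13 were above 0, with a median of -0.09, which was 0.03 without KO heart replicate 1 and -0.20 without KO heart replicate 3. In the lung the median also moved to -0.43 without KO lung replicate 3 and to -0.39 without WT lung replicate 1. Mki67 read 8.47, 9.02 and 9.31 in WT lungs and 8.96, 8.49 and 9.19 in KO lungs, so the groups overlapped. Top2a differed by -0.26 in the lung and by -0.02 in the heart. These genes tend to be high in the same cells, so their shared sign is not 15 separate observations. Summed levels of the 5 lymphocyte markers lay at 9.46 to 10.3 in WT lungs and at 9.81 to 10.4 in KO lungs. Those of the 3 red blood cell markers lay at 14.5 to 16.2 and at 12.4 to 16.7, and 0 of 3 were above 0 in KO minus WT, with a median of -1.08. The 5 heart muscle markers summed to 13.7 to 14.5 in WT lungs and 13.1 to 13.7 in KO lungs, and 4 of 5 were below 0 in KO minus WT, with a median of -0.50. The 5 lung epithelium markers summed to 18.8 to 19.1 in WT lungs and 19.0 to 19.1 in KO lungs. Of these 5, 3 were below 0, among them Sftpc at -0.67 with no overlap of the groups, while Scgb1a1, a club cell gene, was at 0.64. In hearts 5 of 5 lung epithelium markers were above 0 in KO minus WT, at 0.41 to 1.45 with a median of 0.49. The heart muscle markers had a median of -0.06 there, with 2 of 5 above 0, and the red blood cell markers -0.28, with 0 of 3. No marker of these 4 lists passed the thresholds between genotypes (limma), and their part in the lung and heart results was not tested.

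Of the other cohesin genes, 12 had lung values high enough for a test and 8 had such heart values. The loader Nipbl and its partner Mau2 had log2 fold changes of 0.07 and 0.02 in the lung and of -0.19 and 0.21 in the heart, and Pds5a, the paralogue of Pds5b, had 0.13 and -0.26. With 1 lung left out Nipbl ran from -0.059 to 0.172, Mau2 from -0.051 to 0.109 and Pds5a from -0.009 to 0.235. With 1 heart left out they ran from -0.302 to -0.019, 0.122 to 0.285 and -0.333 to -0.185. Esco2, which acetylates SMC3 during replication, read 3.75 to 4.85 in lungs and was too low in hearts to be tested, and Cdca5, the sororin gene, was too low in both. The condensin and SMC5/6 list had a median of 0.02 in the lung and 0.09 in the heart.

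Between tissues, 3 of the 11 other cohesin genes tested passed in WT mice and 5 of 11 in KO mice, and of the anaphase promoting complex list 5 of 19 and 9 of 19, beside the 50.2% and 53.2% of all genes. Neither list thus passed more often than genes in general, with both directions counted. Of the anaphase promoting complex list 1 was higher in the lung and 4 in the heart in WT mice, and 1 and 8 in KO mice. Of the other cohesin genes it was 2 and 1 in WT mice and 4 and 1 in KO mice. Of all genes it was 29.7% and 20.5% in WT mice and 30.9% and 22.3% in KO mice. Sgo2a, a shugoshin known for guarding cohesin in meiosis, was lower in the lung than in the heart by a log2 fold change of -2.52 in WT mice (SE 0.274, adjusted p = 8.14e-05 in limma) and of -2.997 in KO mice (SE 0.168, adjusted p = 1.4e-06). It read 8.46 to 8.89 in WT hearts and 5.81 to 6.59 in WT lungs. Sgo1 was higher in lungs than in hearts in both genotypes by its values, without a test. In WT mice the cohesin list also had Hdac8 (1.02) and Ddx11 (0.84) higher in the lung. In KO mice Pds5a (0.78), Nipbl (0.69), Esco1 (0.84) and Hdac8 (0.63) were higher in the lung.

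Of the 15 markers of dividing cells, 7 were higher in the lung and 1 in the heart in WT mice, beside 29.7% and 20.5% of all genes. Among them were Top2a (2.14, adjusted p = 0.00102) and Mki67 (1.47, adjusted p = 0.00188). Both passed in KO mice too, at 1.90 and 1.57. Fzr1 was lower in the lung in both genotypes, at -1.03 and -0.89, while Cdc20 was higher in the lung by 1.03 in WT mice and missed the group mean threshold in KO mice. Bub1b, a checkpoint kinase gene, was higher in the lung in both, by 2.60 and 1.66. Pttg1 read higher in hearts than in lungs, while most of these markers of division read lower there.

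**Figure D5:**
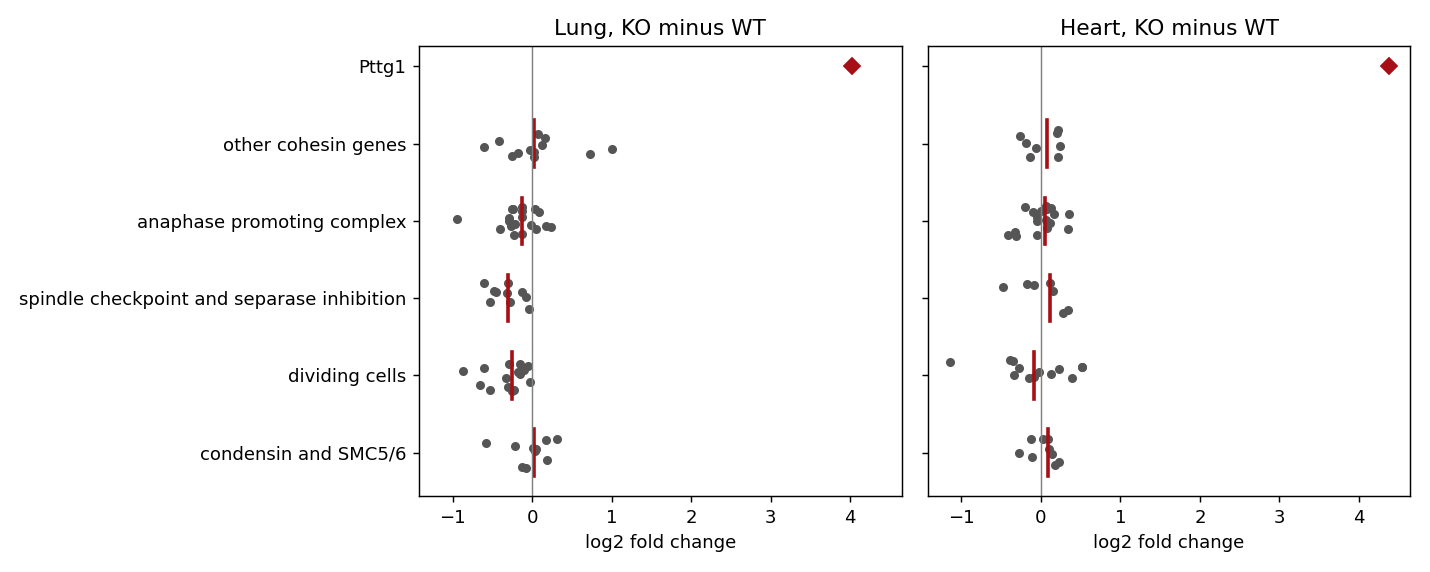
Log2 fold change of KO over WT (horizontal axis) for the genes of 5 lists around securin that could be tested in lungs (left) and hearts (right). Each grey point is a gene, the red bar is the list's median, and the diamond is Pttg1. In the lung, with all 6 libraries kept, all points of the dividing-cell and checkpoint lists lie below 0, and in the heart both lists lie on either side of it.

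Slu7, a splicing factor gene, is the neighbour of Pttg1. It was taken for its position and lies outside the rule for named genes. Slu7 begins at 43317403, inside the annotated span of Pttg1, which ends at 43321000, and is read in the other direction. It starts 309 bases from the start of ENSMUST00000020687. It read 10.10, 10.04 and 10.34 in WT lungs and 10.49, 10.45 and 10.59 in KO lungs, which did not overlap, with a log2 fold change of 0.35 (95% interval 0.02 to 0.69). Over the alternatives it ran from 0.206 to 0.442 in the lung. In hearts it read 9.94, 9.96 and 9.78 in WT and 9.90, 9.74 and 9.90 in KO, with a log2 fold change of -0.05 (95% interval -0.33 to 0.24, adjusted p = 0.942 in limma). The gene next to Pttg1 thus showed no difference of its size.

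The genes whose levels ran most like Pttg1 were looked for over the 12 libraries, after the mean of each tissue was subtracted. Among 14329 genes the construct Adam19_TdTomato was the most alike (Pearson r = 0.993), followed by Slfn8 (0.945), Syt9 (0.918), Meox1 (0.915) and Mmp28 (0.909). The 12 points fall into WT and KO libraries and are 6 mice, so r mostly reads the genotype and is a description. Slfn8, Meox1 and Mmp28 lie on chromosome 11, which holds 8.17% of the genes compared, and Syt9 lies on chromosome 7. Among the partners r ran from -0.466 for Rad21 to 0.212 for Espl1, which ranked 4258 among the genes compared. Espl1 ranked highest of the 8 partners compared, and Sgo1 was not among the genes compared.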

How the data were processed

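The authors aligned reads of stranded total RNA libraries to mm39 and estimated transcript counts with Salmon against GENCODE vM33; the submitters' processing notes also name cutadapt, STAR and limma 3.42.2. The deposited gene and transcript values are on a log2 scale. Transcript values are log2 of the estimated count plus 1. Among single-transcript genes valued at 9 or more, the gene value is the transcript value plus a constant for the library, between -0.63 and 0.80, and 94.7% to 98.6% of such genes lay within 0.01 of it. How transcripts were joined into genes is not given in the sources used here, and gene values and summed transcripts are not on one scale. This bears on genes with several transcripts.

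Genes with a value of at least 3.46 in 3 libraries were tested with lmFit and eBayes with a variance trend (limma 3.58.1, R 4.3.3). Calls needed a fold of at least 1.5, a Benjamini-Hochberg adjusted p under 0.05 and a mean of 6 or more in 1 group. Intervals are 95% intervals of limma, not adjusted for the number of genes. Transcripts were scaled by the constants. Levels per kilobase used transcript lengths from GENCODE vM39, which held all 73 transcripts of the 10 genes by identifier, 55 with the same version. The promoter was read from GRCm39, that of Pttg1 is not reported here, and copies were sought with blastn 2.17.0. The scripts were tested on simulated data.

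Lung and heart libraries pair by mouse identifier. The correlation of their deviations from group means over 14330 genes ran from -0.098 to 0.191. The members and lists were chosen with earlier results of these data known. Genes named are the 10 members, the Pttg1 transcripts, Adam19, list genes past the thresholds (at most 10 a comparison by size), 14 further genes of the pathway, the 5 genes most like Pttg1, and copies. Alternatives were other filters, centring, summed transcripts, a pseudocount of 5 in place of 1, limma-voom on summed estimated counts, no variance trend, 1 model of all groups, a block for the mouse, and leaving out each library.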

Additional observations from a re-analysis of the deposited data

Results flagged for a closer look

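Pds5b differed between genotypes in opposite directions in the 2 tissues, with all KO lungs above all WT lungs and all KO hearts below all WT hearts. The genotype effect in lung minus that in heart was 0.48 log2 (95% interval 0.01 to 0.96, adjusted p = 0.634 in limma), so it did not pass the threshold. With 1 library left out Pds5b ran from 0.061 to 0.328 in the lung, the lowest without WT lung replicate 1, and from -0.328 to -0.137 in the heart.

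The share of Stag2 in Stag1 and Stag2 was also lower in all KO lungs than in all WT lungs and higher in all KO hearts than in all WT hearts. The genotype difference in lung minus that in heart was -6.00 percentage points, with a lung-heart difference of 14.1 points in WT mice and 8.07 in KO mice. The exact two-sided permutation p of 0.1, the smallest that 3 mice against 3 allow, was fixed by the lack of overlap in both tissues. Nothing is read from it. Both patterns were noticed in these data, and the difference in Stag2 share mixes 2 genes whose own genotype differences did not pass.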

How the results depend on the processing

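Of 1453 values computed under alternatives, 1322 kept their direction and their side of the thresholds, 618 of all being with 1 library or mouse left out. Between genotypes in the lung, where no p is given for the 10 genes, 26 of 334 single-gene values changed sign, 20 of them with 1 library left out, in 15 genes. Among these were Espl1 (-0.149 to 0.596), Stag1 (-0.127 to 0.311), Stag2 (-0.326 to 0.048), Wapl (-0.166 to 0.207), Smc1a (-0.030 to 0.211), Sgo1 (-0.769 to 0.022), Mki67 (-0.280 to 0.143), Top2a (-0.431 to 0.064) and Ccnb1 (-0.172 to 0.138). The tallies of 2 gene lists under the alternatives were chosen after seeing the data. The rise of Pttg1 in the heart passed under every alternative, between 4.25 and 4.50 log2, and no partner passed in the lung or in the heart under any of them. In WT mice 1 member differed between lung and heart, but 2 did with libraries centred on their median (Pttg1 added), with summed transcripts or limma-voom (Wapl added) and with no variance trend (Pttg1 added). With a pseudocount of 5 it was 3 (Pttg1 and Wapl) and with 1 model of all groups also 3 (Pttg1 and Stag1). Leaving out a library gave 1 to 3. Where Pttg1 entered these counts nothing is read from it, because its lung values chose the genes. Centring moved the median lung-heart difference of all genes from 0.30 to 0.11 in WT mice and from 0.28 to 0.13 in KO mice. In KO mice the count of 6, which holds Pttg1 on the same terms, became 4 with centring and 5 with summed transcripts, and Pds5b was then at 0.46. With the replicate block for the mouse the counts were 1 in WT and 6 in KO mice, and the block changed no other call of a member. Over all genes, 11 passed between genotypes in the lung and 13 in the heart. With a filter on every library it was 1 and 7, and without KO heart replicate 2 it was 21 in the heart. The single gene with a different genotype effect between tissues, which is no member, became 2 with the block and 0 to 5 with 1 library left out. The log2 fold change of ENSMUST00000020687 in the heart ran from 3.50 to 4.67 with 1 library left out. The lung-heart difference in Stag2 share ran from 10.1 to 11.9 points with 1 mouse left out, where the smallest possible p is 0.0625.

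Differences that did not pass changed sign in some alternatives, and the causes were not tested. In the heart, centring put Smc3 at -0.046 and Stag2 at -0.041. Summed transcripts, a pseudocount of 5 and limma-voom put Smc3 at -0.018, -0.020 and -0.018, Espl1 at -0.087, -0.161 and -0.037, and Slu7 at 0.105, 0.101 and 0.102. With 1 heart left out the heart log2 fold changes ran from -0.083 to 0.091 for Smc3, -0.146 to 0.141 for Stag2, -0.174 to 0.013 for Rad21, -0.285 to 0.0018 for Stag1, -0.102 to 0.010 for Slu7, -0.278 to 0.040 for Mki67, -0.301 to 0.153 for Top2a and -0.179 to 0.201 for Fzr1. Between tissues, centring put Pds5b at -0.064 and Mau2 at -0.038 in WT mice and Espl1 at -0.064 in KO mice. Mau2 in KO mice was at 0.078, 0.077 and 0.078 with summed transcripts, a pseudocount of 5 and limma-voom. With 1 library left out, WT mice gave -0.047 to 1.71 for Espl1, -0.144 to 0.043 for Rad21 and -0.534 to 0.017 for Adam19, and KO mice gave -0.314 to 0.419 for Espl1 (0.97 with summed transcripts) and -0.084 to 0.042 for Mau2.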
